A study of Mus musculus with 8 samples.

Results

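Glycolytic enzymes split glucose into pyruvate, and lactate dehydrogenase turns that pyruvate into lactate. The 10 genes described here are Hk2, Gpi1, Pfkl, Aldoa, Tpi1, Pgk1, Pgam1, Eno1, Pkm and Ldha. They were chosen by name as forms that are often raised in tumors, for all steps but that of Gapdh. The choice was made with earlier results of these data known. The 10 genes were looked up in a count table of 13420 mouse genes. All 10 are in the table, and 9 of them were among the 5264 genes with enough reads to be tested. Eno1 was not.

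Hexokinase and phosphofructokinase spend ATP to prime the sugar, aldolase and triose phosphate isomerase give the 3-carbon units, and phosphoglycerate kinase and pyruvate kinase return the ATP. Many tumors run this pathway to lactate even when oxygen is present. In the small intestine, differentiated enterocytes use some other isozymes, such as the liver form of pyruvate kinase. Several genes of the pathway are known targets of HIF-1, the transcription factor of the response to low oxygen, which binds DNA at the core letters ACGTG.

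Pure and mixed cultures of mouse small intestinal organoids were sequenced in 4 groups of 2 libraries, 8 in all. WT organoids were mTmG (Rosa26-CreERT2::mT/mG) on C57BL/6 and carried membrane tdTomato. Cancer organoids carried, among other alleles, Villin-CreERT2, Apc fl/fl and Tr53 fl/R172H on C57BL/6 (F6), and were labeled with Dendra2. In these the Villin promoter limits the tamoxifen-driven recombination to intestinal epithelium. For mixed cultures 2 parts of WT cells were joined with 1 part of cancer cells, and 3 days later live cells of all cultures were sorted by color. All organoids received EGF, Noggin and R-spondin1 in their medium. The libraries are named by their wells. Pure WT cells are in A01 and A05, mixed WT cells in A02 and A06, pure cancer cells in A03 and A07, and mixed cancer cells in A04 and A08. Nothing read here says whether both libraries of a group came from separate cultures, so the tests may measure technical spread only.

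CEL-Seq reads the 3' end of each transcript. The reads on genes ranged from 73109 in A02 to 4733121 in A04, and levels are given as TMM-scaled CPM, reads divided by library size. In A02 a single read is worth 13.1 CPM and in A04 it is worth 0.196 CPM, so values of A02 are the coarsest. Within a group, read counts of both libraries spread more than counting allows (chi-square over its degrees of freedom, 4.70 to 9.37). Of 7 epithelial markers all 7 were tested. Their summed level was 4739 to 6501 CPM in cancer libraries, 16058 CPM in the WT library A06 and 6023 to 6669 CPM in the other WT libraries. Averaged over culture, the log2 fold change of cancer against WT cells was below 0 for 6 of 7. Of these, 2 were called lower, against 7.37% of all tested genes. Of 9 immune and stromal markers, 3 were in the table and none was tested, with a summed level of at most 7.31 CPM. Nkd1 and Notum, which are Wnt targets raised after Apc loss, had 26.2 to 283 CPM in cancer libraries and at most 13.1 CPM in WT libraries. They were the 2 genes called higher of 6 tested Wnt targets when both cultures were averaged, against 6.8% of all tested genes. Of the other 4, 2 were below 0 in this average, and between pure cultures 3 of 6 were below 0. Axin2 overlapped, with 0 to 155 CPM in WT and 52.5 to 275 CPM in cancer libraries. A change in RNA level in sorted bulk cells cannot be told apart from a change in the share of cells that express the gene.

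The regions before the starts of Pgk1, Pgam1, Aldoa and Pkm are shown because these 4 genes were the ones that passed a test below. Each is the 250 bases before a RefSeq start in GRCm38.p6, 5' to 3' on the strand of the gene, with ACGTG on either strand in capitals. The Pgk1 region is chrX:106186850-106187099 (plus strand), that of Pgam1 is chr19:41911621-41911870 (plus), that of Aldoa is chr7:126799255-126799504 (minus) and that of Pkm is chr9:59656977-59657226 (plus). Aldoa has 3 starts in RefSeq and Pkm has 2. For Aldoa the start farthest upstream of those with the motif was taken, and for Pkm the start with the motif, since reads from the 3' end do not show which start was used.
Pgk1: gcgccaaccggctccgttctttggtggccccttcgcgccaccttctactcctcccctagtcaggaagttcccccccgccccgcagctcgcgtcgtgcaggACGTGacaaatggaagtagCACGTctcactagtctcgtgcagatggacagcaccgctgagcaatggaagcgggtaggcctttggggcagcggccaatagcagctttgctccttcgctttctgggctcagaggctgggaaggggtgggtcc
Pgam1: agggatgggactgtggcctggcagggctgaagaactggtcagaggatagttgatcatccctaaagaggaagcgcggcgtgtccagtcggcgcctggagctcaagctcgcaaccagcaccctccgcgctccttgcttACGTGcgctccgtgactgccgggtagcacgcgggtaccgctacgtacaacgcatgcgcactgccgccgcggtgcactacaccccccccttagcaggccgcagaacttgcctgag
Aldoa: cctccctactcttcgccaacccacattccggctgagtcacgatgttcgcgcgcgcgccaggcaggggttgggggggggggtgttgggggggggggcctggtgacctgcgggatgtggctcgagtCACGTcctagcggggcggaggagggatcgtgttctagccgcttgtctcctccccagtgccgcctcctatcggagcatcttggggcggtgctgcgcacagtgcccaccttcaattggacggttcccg
Pkm: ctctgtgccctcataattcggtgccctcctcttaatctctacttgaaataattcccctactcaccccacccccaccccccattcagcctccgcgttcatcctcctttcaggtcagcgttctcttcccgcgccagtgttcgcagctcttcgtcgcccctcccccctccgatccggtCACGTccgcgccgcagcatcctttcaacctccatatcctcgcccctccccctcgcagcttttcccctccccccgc
The Pgk1 region holds the motif in 2 places, in opposite orientations, and the other 3 regions shown hold it once. The other Pkm region and the Aldoa region farthest upstream, which are not shown, do not hold it. All 10 members had at least 1 of 16 RefSeq starts in the table. The motif was found in 7 of these 16 regions, belonging to 6 members (Hk2, Ldha, Aldoa, Pgk1, Pgam1 and Pkm). It was found in 16.6% of all 32851 regions of the same length. Both Aldoa regions with the motif overlap and hold the same site, so that site is counted in each of them. The longer palindrome CACGTG, which contains ACGTG on both strands, was present in 1 of the 16 regions, that of Ldha, and in 6.02% of all regions. A match is a description of the letters and not of binding.

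Pgk1 was higher in cancer than in WT cells in both cultures. It encodes phosphoglycerate kinase, which makes the first ATP of the payoff phase, and lies on chrX:106187100-106203699 (GRCm38, plus strand, 11 exons in its longest transcript). Its level was 1851 and 1489 CPM in pure WT, 1403 and 1797 CPM in mixed WT, 4954 and 4382 CPM in pure cancer and 3973 and 4280 CPM in mixed cancer cells. All 4 cancer libraries lay above all 4 WT libraries, and the gap between the groups was larger than the range within either cell type. The log2 fold change between pure cultures was 1.48 (SE 0.376, edgeR adjusted p = 0.0111), which is a 2.80-fold higher level. Between mixed cultures it was 1.36 (SE 0.378, adjusted p = 0.0276). Averaged over culture it was 1.42 (SE 0.266, adjusted p = 0.000408), and this average uses the same libraries as the pairwise comparisons. The pairwise calls rest on few libraries. Without A01 the adjusted p between pure cultures was 0.0666 and without A05 it was 0.118. Between mixed cultures it was 0.181 without A02, 0.0596 without A04, 0.0781 without A06, 0.0502 without A08 and 0.0672 in a fit of only the 4 libraries compared. The averaged call was made in all 8 fits that left out a library, at adjusted p of 3.54e-05 to 0.00175. Of the 451 windows of 50 bases in the last 500 bases of its longest transcript, 7.32% also occur in the retrogene Pgk1-rs7.

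**Figure D1:**
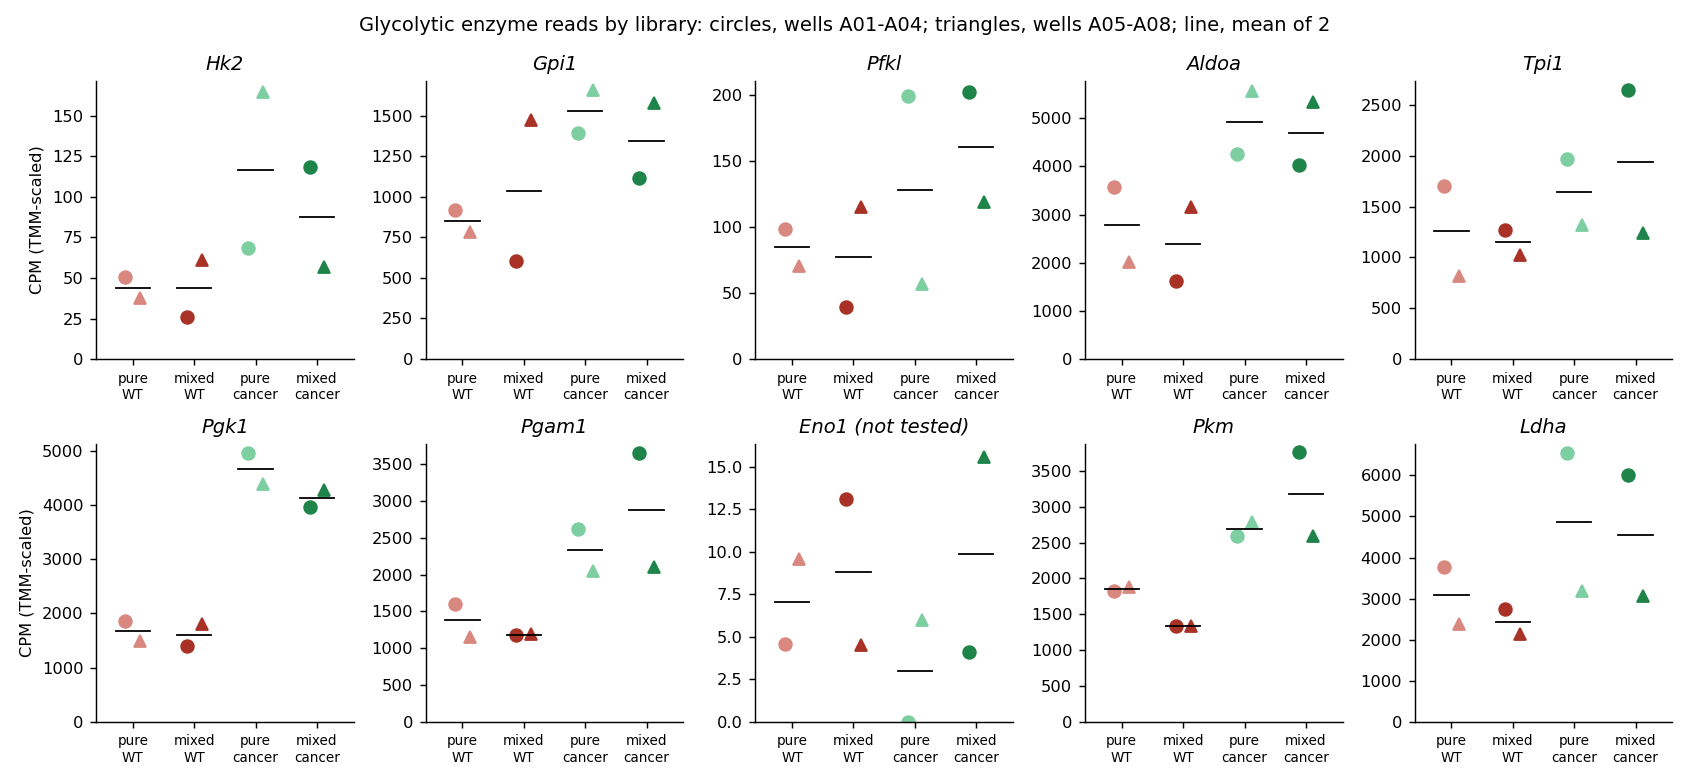
TMM-scaled CPM (vertical axes, linear from 0) of the 10 genes in the 8 libraries by group, with circles for wells A01 to A04, triangles for wells A05 to A08 and lines at the mean of 2 libraries. Cancer libraries of Pgk1 sit between 3973 and 4954 CPM, all above the WT libraries, which sit between 1403 and 1851 CPM.

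Pgam1, Pkm and Aldoa passed the test only when both cultures were averaged. Pgam1 encodes phosphoglycerate mutase and lies on chr19:41911923-41918660 (plus strand). It had 1601 and 1156 CPM in pure WT, 1180 and 1189 CPM in mixed WT, 2614 and 2047 CPM in pure cancer and 3654 and 2101 CPM in mixed cancer cells. The cell types did not overlap, and A04 was the highest library. The averaged log2 fold change was 1.02 (SE 0.285, adjusted p = 0.0151), and without A04 it was 0.75 (adjusted p = 0.105).

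Pkm encodes the muscle-type pyruvate kinase, whose splice forms M1 and M2 these counts do not separate, and lies on chr9:59656368-59679375 (plus strand). It had 1825 and 1885 CPM in pure WT, 1337 and 1343 CPM in mixed WT, 2598 and 2790 CPM in pure cancer and 3760 and 2594 CPM in mixed cancer cells. Here too every cancer library was above every WT library. The averaged log2 fold change was 0.89 (SE 0.269, adjusted p = 0.0251). The call was lost in 5 of 8 fits without 1 library, at adjusted p of 0.118 without A01, 0.0558 without A02, 0.115 without A04, 0.0630 without A06 and 0.0517 without A07.

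Aldoa encodes aldolase A, which cuts the 6-carbon sugar, and lies on chr7:126795234-126800751 (minus strand). It had 3565 and 2016 CPM in pure WT, 1612 and 3156 CPM in mixed WT, 4262 and 5573 CPM in pure cancer and 4037 and 5327 CPM in mixed cancer cells. The cell types did not overlap, but the highest WT library came close to the lowest cancer library. The averaged log2 fold change was 0.89 (SE 0.292, adjusted p = 0.0421). It was lost without A02 (adjusted p = 0.166), A05 (0.108), A07 (0.0789) or A08 (0.0578).

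Among the 9 tested enzymes, 1 was called higher in cancer cells between pure cultures, against 5.11% of all tested genes, while 4.84% of all were called lower. Between mixed cultures it was again 1 of 9, the same gene Pgk1, against 2.01% of all tested genes higher and 4.41% lower. With both cultures averaged 4 of 9 were called higher, against 6.8% of all tested genes, and 0 of 9 lower, against 7.37%. Since the enzymes were chosen with earlier results of these data known, the shares over all genes are no independent comparison. All 9 log2 fold changes were above 0 in each of these 3 comparisons, but with barcode counts, which level off at 256 for abundant genes, only 2 of 9 were above 0 between mixed cultures. Their median was 0.76 between pure cultures, 0.90 between mixed cultures and 0.89 on average, beside medians over all tested genes of -0.05, 0.12 and 0.04. For 4 of 9 enzymes all cancer libraries were above all WT libraries, as was the case for 8.24% of all tested genes, and the reverse held for 0 of 9 and for 8.11% of all. Pkm and Pgam1 were just outside the threshold between mixed cultures, with log2 fold changes of 1.25 (adjusted p = 0.0545) and 1.28 (adjusted p = 0.0636). Both were called there without A03, A05, A07 or A08, at adjusted p of 0.0112 to 0.0386. Without A01, A02 or A06 neither was called (adjusted p = 0.0741 to 0.175), and without A04 Pkm was 0.91 (adjusted p = 0.349) and Pgam1 was 0.79 (adjusted p = 0.466).

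**Figure D2:**
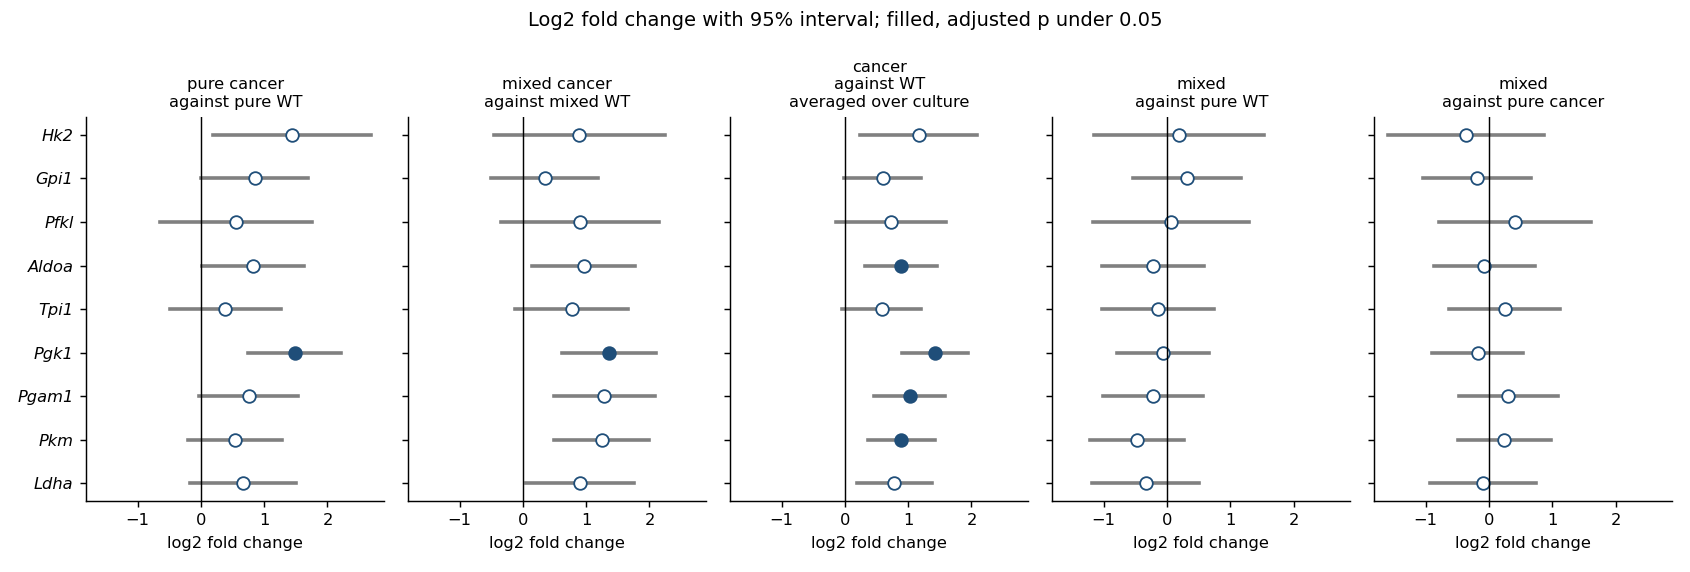
Log2 fold change (horizontal axes) of the 9 tested enzymes in 5 comparisons, with bars for the normal 95% interval and filled points for an adjusted p under 0.05 (edgeR). Pgk1 is filled in the 3 comparisons of cancer with WT cells, Pgam1, Pkm and Aldoa are filled in the average, and no point is filled in both comparisons of mixed with pure cultures.

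The other 5 tested enzymes did not pass in any comparison. Ldha, whose product reduces pyruvate to lactate, had 3769 and 2381 CPM in pure WT, 2753 and 2125 CPM in mixed WT, 6550 and 3185 CPM in pure cancer and 6006 and 3071 CPM in mixed cancer cells. The groups overlapped, since the WT library A01 lay above the cancer libraries A07 and A08. Its averaged log2 fold change was 0.78 (95% interval 0.19 to 1.38, adjusted p = 0.0957). It was 0.45 without A04 (adjusted p = 0.383) and 0.48 without A03 (0.352), whereas it was called at 0.95 without A07 (0.0104) and at 0.97 without A08 (0.00830).

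Hk2 encodes hexokinase 2, which traps glucose in the cell. It had 50.3 and 37.7 CPM in pure WT, 26.2 and 61.2 CPM in mixed WT, 68.2 and 165 CPM in pure cancer and 119 and 57.1 CPM in mixed cancer cells. Only the mixed libraries A06 and A08 crossed, and A02 held 2 reads of this gene. The averaged log2 fold change was 1.16 (95% interval 0.24 to 2.08, adjusted p = 0.112), and it passed at 1.39 without A03 (adjusted p = 0.0414) and was 0.72 without A07 (0.475).

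Gpi1, glucose-6-phosphate isomerase, ranged from 603 to 1475 CPM in WT and from 1114 to 1661 CPM in cancer libraries, with overlap through A06. Its averaged log2 fold change was 0.59 (interval -0.01 to 1.20, adjusted p = 0.242), and it was 0.33 without A02 (adjusted p = 0.578) and 1.02 without A06 (0.0441). Pfkl, the liver-type phosphofructokinase of the committed step, ranged from 39.3 to 116 CPM in WT and from 56.9 to 203 CPM in cancer libraries. The averaged log2 fold change of Pfkl was 0.73 (interval -0.14 to 1.59, adjusted p = 0.339), and it was 0.15 without A03, 0.46 without A04 and 1.32 without A06. Tpi1, triose phosphate isomerase, ranged from 814 to 1703 CPM in WT and from 1240 to 2645 CPM in cancer libraries, and its averaged log2 fold change was 0.58 (interval -0.05 to 1.20, adjusted p = 0.282) and was 0.20 without A04. For these 3 genes the cell types overlapped in at least 1 library.

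Eno1, the main enolase, was counted with 5 reads in A01, 17 in A05, 1 in A02 and 2 in A06 of the WT libraries, and with 0 in A03, 2 in A07, 21 in A04 and 3 in A08 of the cancer libraries. Of its last windows 75.2% also occur in the copy Eno1b, and the study discarded reads that map equally well to several places. The level of Eno1 can therefore not be read from this table. Gapdh, the step between Tpi1 and Pgk1, was not among the 10 genes and has the same limit, with 90.5% of windows shared. Its level was 237 to 437 CPM in WT and 413 to 545 CPM in cancer libraries.

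The wells A01 to A04 hold 1 library of each group, and so do A05 to A08, although the labels do not call them sets. Tpi1 and Ldha were higher in the A01 to A04 library in all 4 groups. Within a set and a culture, the cancer library was above the WT library in 4 of 4 comparisons for Aldoa, Gpi1, Ldha, Pgam1, Pgk1, Pkm and Tpi1 and in 3 of 4 for Hk2 and Pfkl. The ratio was 2.38 to 2.94 for Pgk1, 1.63 to 3.10 for Pgam1, 1.42 to 2.81 for Pkm and 1.20 to 2.77 for Aldoa. For Ldha it was 1.34 to 2.18. With the set as a term of the fit, an alternative added after the values had been seen, Ldha was called on average (log2 fold change 0.71, adjusted p = 0.0323).

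Whether mixing moved these enzymes was compared within each cell type. In WT cells 0 of 9 were called between mixed and pure cultures, against 0.741% of all tested genes (39 of 5264). That count over all genes was 2 without A06, 8 without A05 and 89 to 118 without A02, A03, A07 or A08. The log2 fold changes lay between -0.47 for Pkm and 0.32 for Gpi1, and no unadjusted p of the 9 was under 0.05. Both mixed WT libraries of Pkm, at 1337 and 1343 CPM, were below both pure WT libraries, at 1825 and 1885 CPM, but the change did not pass (interval -1.21 to 0.27, adjusted p = 0.764). For Pgk1 the interval was -0.78 to 0.67. In cancer cells 0 of 9 were called, against 0% of all tested genes. Over all genes edgeR and DESeq2 both called 0 here, and 69 had an unadjusted p under 0.05 in edgeR. The log2 fold changes of the enzymes lay between -0.36 for Hk2 and 0.41 for Pfkl. That of Pgk1 was -0.18 (interval -0.90 to 0.54). The difference between the change in cancer cells and the change in WT cells was called for 0 of 9 enzymes, against 0.076% of all tested genes. It lay between -0.55 for Hk2 and 0.71 for Pkm.

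Isozyme shares do not depend on scaling between libraries, and CEL-Seq gives each transcript a single 3' tag, so reads of a family were compared without division by length. Of all pyruvate kinase reads, Pkm made up 98.2% and 97.9% in pure WT, 99.0% and 97.4% in mixed WT, 100% and 99.9% in pure cancer and 99.9% and 100% in mixed cancer cells. The remainder was Pklr, the liver and red cell form, and the means were 98.1% ± 0.694 in WT and 99.96% ± 0.0517 in cancer libraries (SD, n = 4 each). Every cancer library was above every WT library, but A02 held 102 Pkm reads of 103 in the family. Its 95% Wilson interval, 94.7% to 99.8%, overlapped those of the cancer libraries A03, A07 and A08. The exact two-sided permutation test gave p = 0.0286, the smallest that 4 against 4 libraries can give, and 0.0857 after adjustment over 6 families. Pklr was called lower in cancer cells (log2 fold change -4.03, SE 0.860, adjusted p = 0.00147) but not without A05 (adjusted p = 0.0572) or A06 (0.145), and it was -6.19 without A07. Its 12 reads over all cancer libraries, most of them from A04, were 0.0558 times the WT level (95% counting interval 0.0281 to 0.101). All 6 tested markers of enterocytes were called lower in cancer cells too, against 7.37% of all tested genes. The summed level of the enterocyte markers was 1543 to 1862 CPM in WT libraries and 0 to 15.7 CPM in cancer libraries. Their part in the change of Pklr was not tested.

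Hk2 made up 22.2% to 65.7% of hexokinase reads in WT and 61.1% to 82.1% in cancer libraries, with overlap (exact permutation p = 0.114, adjusted p = 0.171). The lowest shares were those of the mixed WT libraries A02 (2 of 9 reads) and A06 (27 of 73 reads). Hk1 was at 78.6 and 81.6 CPM in these and at 22.9 and 12.9 CPM in pure WT, which was not called (log2 fold change 2.18, adjusted p = 0.238). Pfkl made up 30.0% to 58.3% of phosphofructokinase reads in WT and 19.6% to 57.6% in cancer libraries (exact permutation p = 0.914). Of lactate dehydrogenase reads nearly all were Ldha, and Ldhb had 2 reads in A04 and 0 in the other libraries.

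**Figure D3:**
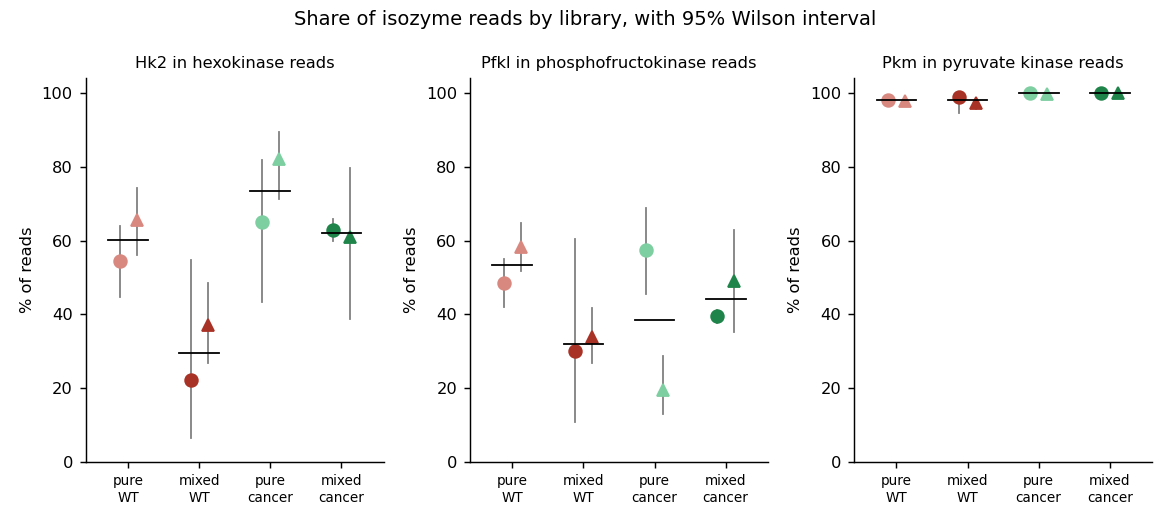
Share of Hk2, Pfkl and Pkm in the reads of their families (vertical axes, percent) by group, with bars for the 95% Wilson interval, circles for wells A01 to A04, triangles for wells A05 to A08 and lines at the mean of 2 libraries. The Pkm share is 99.9% to 100% in cancer and 97.4% to 99.0% in WT libraries, whereas the shares of Hk2 and Pfkl overlap.

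Other genes of the pathway were counted from fixed lists, in the averaged comparison. There 6.8% of all tested genes were called higher and 7.37% lower. Of 21 other glycolytic isozymes 8 were tested, of which 1, Eno2, was called higher and 2, among them Pklr, lower, and the median was -0.09. Eno2, the neuron-type enolase, had 12, 9, 112 and 6 reads in cancer libraries A03, A07, A04 and A08 (21.9 to 63.0 CPM) and 2 reads over all WT libraries. Reads pooled over libraries, most of them from A04, gave a level 40.4 times that of WT cells (95% counting interval 11.0 to 337). The means of libraries were 35.7 CPM ± 18.5 and 0.281 CPM ± 0.562 (SD, n = 4 each), a ratio of 127. The fitted log2 fold change was 6.84 (adjusted p = 0.000639). Of 12 transport genes 6 were tested, with a median of 0.70. Bsg, which encodes the chaperone of lactate transporters, was called higher (1.50, SE 0.306, adjusted p = 0.000989). It had 1219 to 1285 CPM in A01, A05 and A02, 3337 CPM in A06 and 3637 to 5820 CPM in cancer libraries. Slc5a1 is the apical sodium and glucose transporter of enterocytes. It had 39.3 to 70.5 CPM in WT libraries and 0 reads in all cancer libraries (edgeR adjusted p = 5.74e-06). Against a floor of 3 reads over the pooled cancer libraries it was at least 120-fold lower, a bound that rests mostly on the depth of A04. The floor of 3 reads was 0.587 CPM in A04, but 15.7, 8.98 and 15.6 CPM in A03, A07 and A08. The glucose transporter Slc2a1 had a log2 fold change of 0.70 (adjusted p = 0.372).

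Of 7 tested genes of gluconeogenesis and fructose use, with a median of -2.23, none was called higher, against 6.8% of all tested genes. Called lower were 4 of 7, against 7.37%. They were Fbp2 (-3.92, adjusted p = 0.000156), Gpd1 (-3.50, adjusted p = 0.000129), Khk (-2.23, adjusted p = 0.0130) and Gpd2 (-2.35, adjusted p = 0.0456). Khk, the fructokinase, lost the call without A01 (adjusted p = 0.0590), A04 (0.102), A05 (0.113) or A06 (0.175). Gpd2 lost it without A01, A02, A04, A05 or A07 (0.0784 to 0.167) and was -5.01 without A03. Without A04 the log2 fold change of Fbp2 was -6.63 and that of Gpd1 was -6.50, and without A07 that of Fbp2 was -6.54. The lowest cancer level was 0 CPM for Fbp2, Gpd1 and Gpd2, so their log2 fold changes are no bounds. Of 8 tested pentose phosphate genes only Taldo1, transaldolase, was called, and it was lower (-1.69, SE 0.324, adjusted p = 0.000515) with a list median of -0.10. Of 12 tested regulators and genes of pyruvate use, Pgm2 alone was called, and it was higher (1.32, adjusted p = 0.0262) with a list median of 0.03. The counted entry of this name is placed on chromosome 4, whereas GENCODE vM21 places Pgm2 on chromosome 5. Which gene was counted under this name is therefore not settled here. Pgm2 was not called without A03 (adjusted p = 0.235), A04 (0.189), A05 (0.0649) or A06 (0.0670).

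Of 17 tested genes of the HIF-1 pathway and its targets outside glycolysis, 6 were called higher in cancer cells on average and none lower. Over all tested genes 6.8% were called higher and 7.37% lower. The list median was 0.72, with all 17 above 0. Bnip3, a mitophagy receptor, had 79.6 and 86.0 CPM in pure WT, 236 and 161 CPM in mixed WT, 897 and 446 CPM in pure cancer and 645 and 420 CPM in mixed cancer cells. Its cell types did not overlap (log2 fold change 2.25, SE 0.350, adjusted p = 4.67e-05). Vegfa, an angiogenic ligand, had 0 to 47.6 CPM in WT and 124 to 172 CPM in cancer libraries (2.51, SE 0.494, adjusted p = 0.000680), and its log2 fold change was 6.70 without A06. Egln3, a prolyl hydroxylase that marks HIF for degradation, had 70.8 to 607 CPM in WT and 794 to 1036 CPM in cancer libraries (1.73, SE 0.353, adjusted p = 0.000970). Its relative Egln1 had a value of 1.56 (adjusted p = 0.0106), and was not called without A01, A04 or A07 (adjusted p = 0.0620 to 0.104). Adm, a vasodilator peptide, had a log2 fold change of 2.22 (adjusted p = 0.0193). It was not called without A04 (0.222) or A05 (0.0739) and was 6.48 without A06. P4ha2, a collagen hydroxylase, had a value of 2.77 (adjusted p = 0.0365). It was not called without A04, A05, A06 or A07 (0.0686 to 0.202), and was 5.39 without A06. The lowest WT level was 0 CPM for Vegfa, Adm and P4ha2, and P4ha2 had 12 reads over all WT libraries. The log2 fold changes of these genes are therefore no bounds. Between pure cultures alone 4 of 17 HIF-1 genes were called higher, against 5.11% of all tested genes, with a median of 1.20 and all 17 above 0. Between mixed cultures 0 of 17 were called, against 2.01% of all tested genes higher and 4.41% lower, with a median of 0.29 and 5 of 17 below 0. In WT cells 15 of 17 were above 0 in mixed against pure cultures, with a median of 0.88 beside -0.10 over all genes, but none was called (smallest adjusted p = 0.123). In cancer cells the median was 0.05 and again none was called. The difference between both comparisons was called for 0 of 17 (smallest adjusted p = 0.560).

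**Figure D4:**
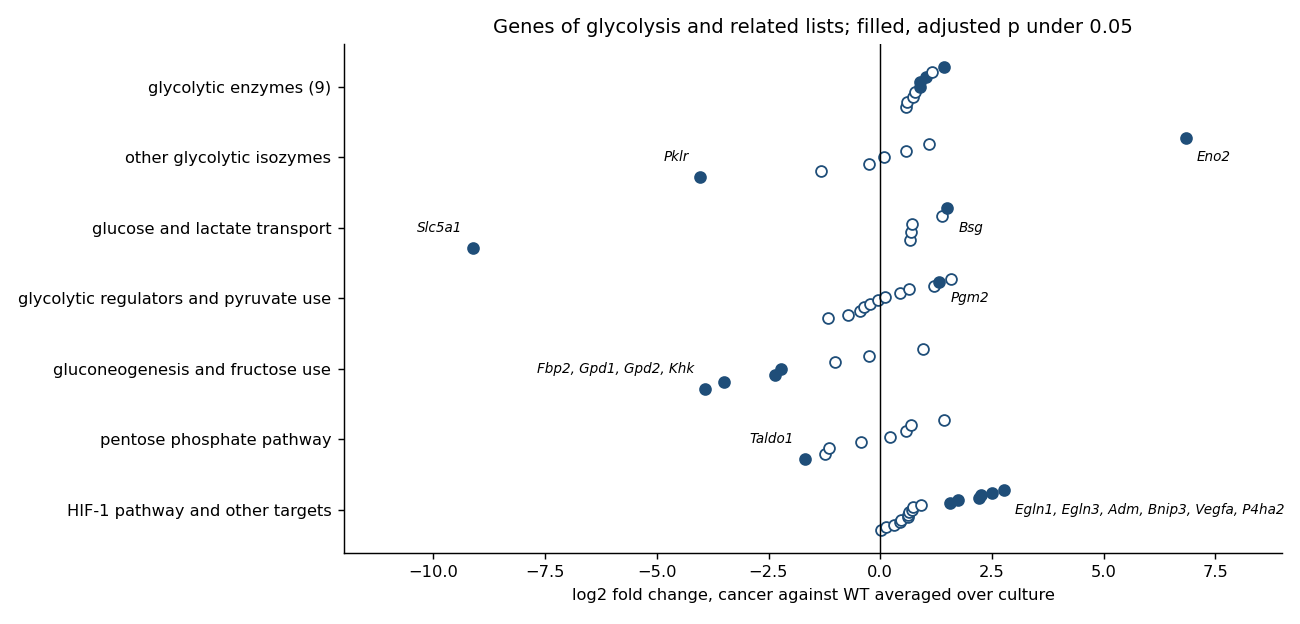
Averaged log2 fold change of cancer against WT cells (horizontal axis) for the 9 tested enzymes and the tested genes of 6 lists (vertical axis), filled and named where the adjusted p was under 0.05 (edgeR). All 9 enzymes and all 17 HIF-1 genes lie above 0. The values of Slc5a1, Eno2, Pklr, Fbp2, Gpd1, Gpd2, Vegfa, Adm and P4ha2 rest in part on libraries with 0 reads and are no bounds. A gene not reported here is left out of the isozymes.

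Of 8 tested cell cycle markers none was called on average (median 0.54, smallest adjusted p = 0.184), and their summed level was 408 to 1199 CPM in WT and 669 to 1622 CPM in cancer libraries. Summed over the 10 enzymes, the level was 10238 to 15385 CPM in WT libraries and 20381 to 25513 CPM in cancer libraries. Among the 5 genes most like the mean log2 CPM of the enzymes over the 8 libraries, out of 2745 genes with a mean of at least 50 reads, were Crb3 (Pearson's r = 0.970), Tubb6 (0.969), Eif4ebp1 (0.957) and Lgals1 (0.953). These are descriptions over libraries that fall into 2 cell types. Crb3, an apical polarity gene, had 39.3 to 70.2 CPM in WT and 83.0 to 121 CPM in cancer libraries.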

How the data were processed

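Sorted WT and cancer organoid cells were profiled by CEL-Seq in 8 libraries, 2 in each of 4 groups set by the labels. Per the methods of the study, reads were aligned with BWA to the mm10 RefSeq transcriptome, reads with several equally good places were discarded and genes were counted with featureCounts. The authors deposited read counts and barcode counts per gene without normalization. Transcript counts corrected for barcode collisions and a DESeq2 1.22.2 table of fold changes and p-values were not used here. The rows of a spike-in and of eGFP were dropped (2 entries).

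Read counts of all 8 libraries entered a single edgeR 4.0.16 quasi-likelihood fit in R 4.3.3 (TMM factors, filterByExpr at a minimum count of 10), with Benjamini-Hochberg adjustment over 5264 tested genes and calls at 0.05. Standard errors were taken from the fold change and its F statistic, and 95% intervals are normal. Counting intervals and floors of 3 reads cover counting error only, since reads include amplification copies. Alternatives were barcode counts, a minimum count of 50 or no filter, median-of-ratios factors, DESeq2 1.42.0, fits of the 4 libraries of a comparison, fits without a single library, and retrogene reads added. The fit was tested on simulated data with changes larger than those of the enzymes. That test does not cover changes of their size. The 10 enzymes and the lists were chosen with earlier results of these data known. Named are the enzymes, their isozymes, list genes called in a comparison or among the 2 highest of a list, and the 5 genes most like the enzymes, of which those shown are a part. Positions and shared windows come from GENCODE vM21 (GRCm38), and promoters from RefSeq (GRCm38.p6). Some genes and alleles are not reported here.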

Additional observations from a re-analysis of the deposited data

How the results depend on the processing

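No result called by edgeR on reads reversed its direction, except that with barcode counts Pgk1 between mixed cultures was -0.21. A 4-base barcode has 256 forms, and 34 of 72 values of the tested enzymes were above 200, so barcode counts level off. With barcode counts 0 enzymes were called between pure cultures, between mixed cultures and on average, and the cause was not tested. Pgk1 between pure cultures was then 2.04 (edgeR adjusted p = 0.372). Between mixed cultures the count of enzymes called was 3 without a filter on low counts, 2 at a minimum count of 50, 2 with DESeq2 (where Pkm joined Pgk1, adjusted p = 0.0324), 0 in a fit of only the 4 libraries compared and 3 with the well set as a term, which was chosen after seeing the data. Leaving out each library in turn, the count was 0 to 1 between pure cultures, 0 to 3 between mixed cultures and 2 to 5 on average (2 without A02 or A04), and it was 0 in the other comparisons. The count over all genes between mixed and pure WT cells was 39, and 93 with barcodes, 68 without a filter, 70 with DESeq2, 108 in a fit of 4 libraries, 119 with the well set as a term and 2 to 118 without 1 library (2 without A06, 8 without A05). Without 1 library the counts over all genes were 261 to 745 between pure cultures (314 without A01, 261 without A05, 342 without A07), 167 to 506 between mixed cultures (167 without A04, 220 without A06), 547 to 963 on average and 1 to 32 for the difference of the changes (1 without A04 or A06, 2 without A05). At a minimum count of 50, fewer genes were tested and the counts over all genes were 232 between pure cultures, 151 between mixed cultures and 314 on average, instead of 524, 338 and 746. For the difference of the changes they were 4, and 23 with barcodes, 10 without a filter, 12 with DESeq2 and 30 with the well set.

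Signs that changed belong to log2 fold changes that did not pass, apart from Pgk1 above. With barcode counts, mixed against pure WT became 1.49 for Aldoa, 1.23 for Tpi1, 1.54 for Pgk1, 0.84 for Pgam1, 1.30 for Pkm and 2.07 for Ldha. Mixed against pure cancer became -0.98 for Tpi1, -0.79 for Pgam1 and -0.67 for Pkm. Mixed cancer against mixed WT became -0.14 for Gpi1 and Aldoa, -0.74 for Tpi1, -0.13 for Pgam1, -0.45 for Pkm and -0.96 for Ldha. The difference of the changes became -0.18 for Pfkl, -2.03 for Aldoa, -2.21 for Tpi1, -1.62 for Pgam1, -1.96 for Pkm and -2.91 for Ldha. Mixed against pure WT of Pgk1 was 0.063 with median-of-ratios factors, 0.059 at a minimum count of 50 and 0.065 with DESeq2. Without a filter it was -0.094 for Pfkl, and the difference of the changes was 0.079 for Pgk1. At a minimum count of 50, mixed against pure WT of Tpi1 was 0.0043. The cause was not tested for these.

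Leaving out 1 library in turn, mixed against pure WT ranged from -0.83 to 0.44 for Hk2, -0.58 to 0.75 for Gpi1, -1.19 to 0.41 for Pfkl, -0.88 to 0.26 for Aldoa, -0.53 to 0.51 for Tpi1, -0.34 to 0.12 for Pgk1, -0.39 to 0.049 for Pgam1 and -0.58 to 0.049 for Ldha. Mixed against pure cancer ranged from -1.04 to 0.52 for Hk2, -0.39 to 0.062 for Gpi1, -0.19 to 1.55 for Pfkl, -0.26 to 0.19 for Aldoa, -0.38 to 0.76 for Tpi1, -0.12 to 0.73 for Pgam1, -0.035 to 0.55 for Pkm and -0.63 to 0.52 for Ldha. Cancer against WT ranged from -0.00024 to 0.99 for Ldha and -0.62 to 1.14 for Pfkl between pure cultures, and from -0.15 to 1.21 for Gpi1 between mixed cultures. The difference of the changes ranged from -1.22 to 0.46 for Hk2, -0.95 to 0.40 for Gpi1, -0.23 to 1.62 for Pfkl, -0.29 to 0.81 for Aldoa, -0.25 to 0.95 for Tpi1, -0.25 to 0.16 for Pgk1 and -0.31 to 0.96 for Ldha. The difference in isozyme share ranged from -6.66 to 6.01 percentage points for Pfkl and from -0.0022 to 0 for Ldha. In these fits of 3 against 4 libraries no adjusted p of the exact permutation tests was under 0.05, so no share passed. Retrogene reads were added for Aldoa alone, from Aldoart1 and Aldoart2, and this changed no call of an enzyme. Eno1b has no row in the table. Reads of Pgk1-rs7 were not added to Pgk1, so this alternative does not cover Pgk1. The labels give wells and no replicate number, so no libraries are paired by label, and the well set was the only block fitted. As a hint from the data, deviations of libraries of the same well set correlated at 0.0733 to 0.282 between groups.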
